A study of Mus musculus with 12 samples.

Results

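The genes described here are 56 collagens, collagen cross-linking enzymes and other proteins of the extracellular matrix, out of 26228 gene symbols named on a mouse expression array. They were chosen by symbol from what their products are known to do, and all 56 were found on the array, on 106 of its 61657 spots that are not controls. By role they comprise 6 fibrillar collagens, 8 basement membrane collagens, 8 other collagens, 5 cross-linking enzymes, 11 proteins of elastic fibres and microfibrils, 4 small leucine-rich proteoglycans, 8 matrix glycoproteins and 6 matrix proteases or their inhibitors. RNA came from female B6C3F1/Nctr mice and was hybridised with a single dye (Cy3) to 12 Agilent arrays, 3 for each of 4 groups: liver with acrylamide at 0.7 mM, untreated liver, lung with acrylamide at 0.7 mM and untreated lung. Acrylamide is a small reactive amide, and the sources used here give neither the route and length of exposure nor the age of the mice. No genetic change is named for any group, and arrays are called here by the number in their titles.

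The matrix is the protein scaffold around cells. Fibrillar collagens give it tensile strength once lysyl oxidases have cross-linked them, elastic fibres let it recoil, and basement membranes of collagen IV sheets underlie epithelia and vessels. In liver it is made mainly by stellate cells and portal fibroblasts and is known for its build-up in fibrosis, and in lung the elastic fibres and the thin alveolar basement membrane carry breathing movements and gas exchange.

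All 12 arrays carry the tissue entry liver, whereas titles and source names call 6 of them lung, so the tissues were checked with marker genes. Intensities are given here as scaled intensity, a linear value with the 75th percentile of each array set at 1000. The summed scaled intensity of 6 alveolar type 2 genes was 763353 to 999933 on arrays titled lung and 7944 to 19805 on those titled liver, while that of 8 hepatocyte genes was 15243 to 34325 in lung and 2779084 to 4532445 in liver. Liver acrylamide 30 stood apart as the dimmest array, with 45 of the 56 matrix genes above background, against 51 to 56 on the other 11 arrays. No label states whether replicate arrays were hybridised with RNA of different mice, so p-values measure only the spread between arrays, and that spread may be technical.

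In liver the matrix genes lay mostly below untreated liver after acrylamide, but none passed the test. Of 55 tested genes 44 were lower and 11 higher, with a median difference of -0.30 log2 units, whereas 53.1% of all 21169 tested genes were lower and their median was -0.02. limma with Benjamini-Hochberg adjustment over all genes called 0 of the 55 at an adjusted p under 0.05, as it called 0.0% of all genes. At an unadjusted p under 0.05 there were 13 matrix genes, all lower, where 3.49% of all genes were lower at that level, and 7 of them were at least 1.5-fold lower, where 2.02% of all genes were. Mmp3, the protease stromelysin, was not above background on enough liver arrays to be tested.

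The 3 acrylamide livers agreed in direction. The median deviation of the 55 genes from the untreated mean was -0.38 log2 units on acrylamide 27, -0.33 on acrylamide 29 and -0.28 on acrylamide 30, against 0.10 on control 1, -0.02 on control 3 and -0.06 on control 4. Over all genes that median stayed between -0.04 and 0.02 on the 6 arrays. The groups did not overlap for 17 matrix genes that were lower with acrylamide and for 1 that was higher, where 6.74% of all genes were separate and lower and 5.44% separate and higher. Without acrylamide 30 there were 27 separate and lower genes, beside 21.1% of all genes. Titles open with a code that no label explains; it was read here as a slide number, a row (1 or 2) and a place in the row. The median difference was -0.30 within title row 1, where 45 genes were lower, and -0.17 within row 2, where 39 were and each group has 1 array. For 48 genes the mean over the 6 liver arrays was at least 4-fold above the mean background limit. Of these 48 genes 40 were lower, and their median was -0.29. The background limit was -4.13 log2 units relative to the 75th percentile on acrylamide 30, against -7.74 to -6.99 on the other liver arrays. Genes in this set could thus still lie near or below background on acrylamide 30. In bulk tissue, fewer cells of a type and less RNA per cell cannot be told apart.

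**Figure D1:**
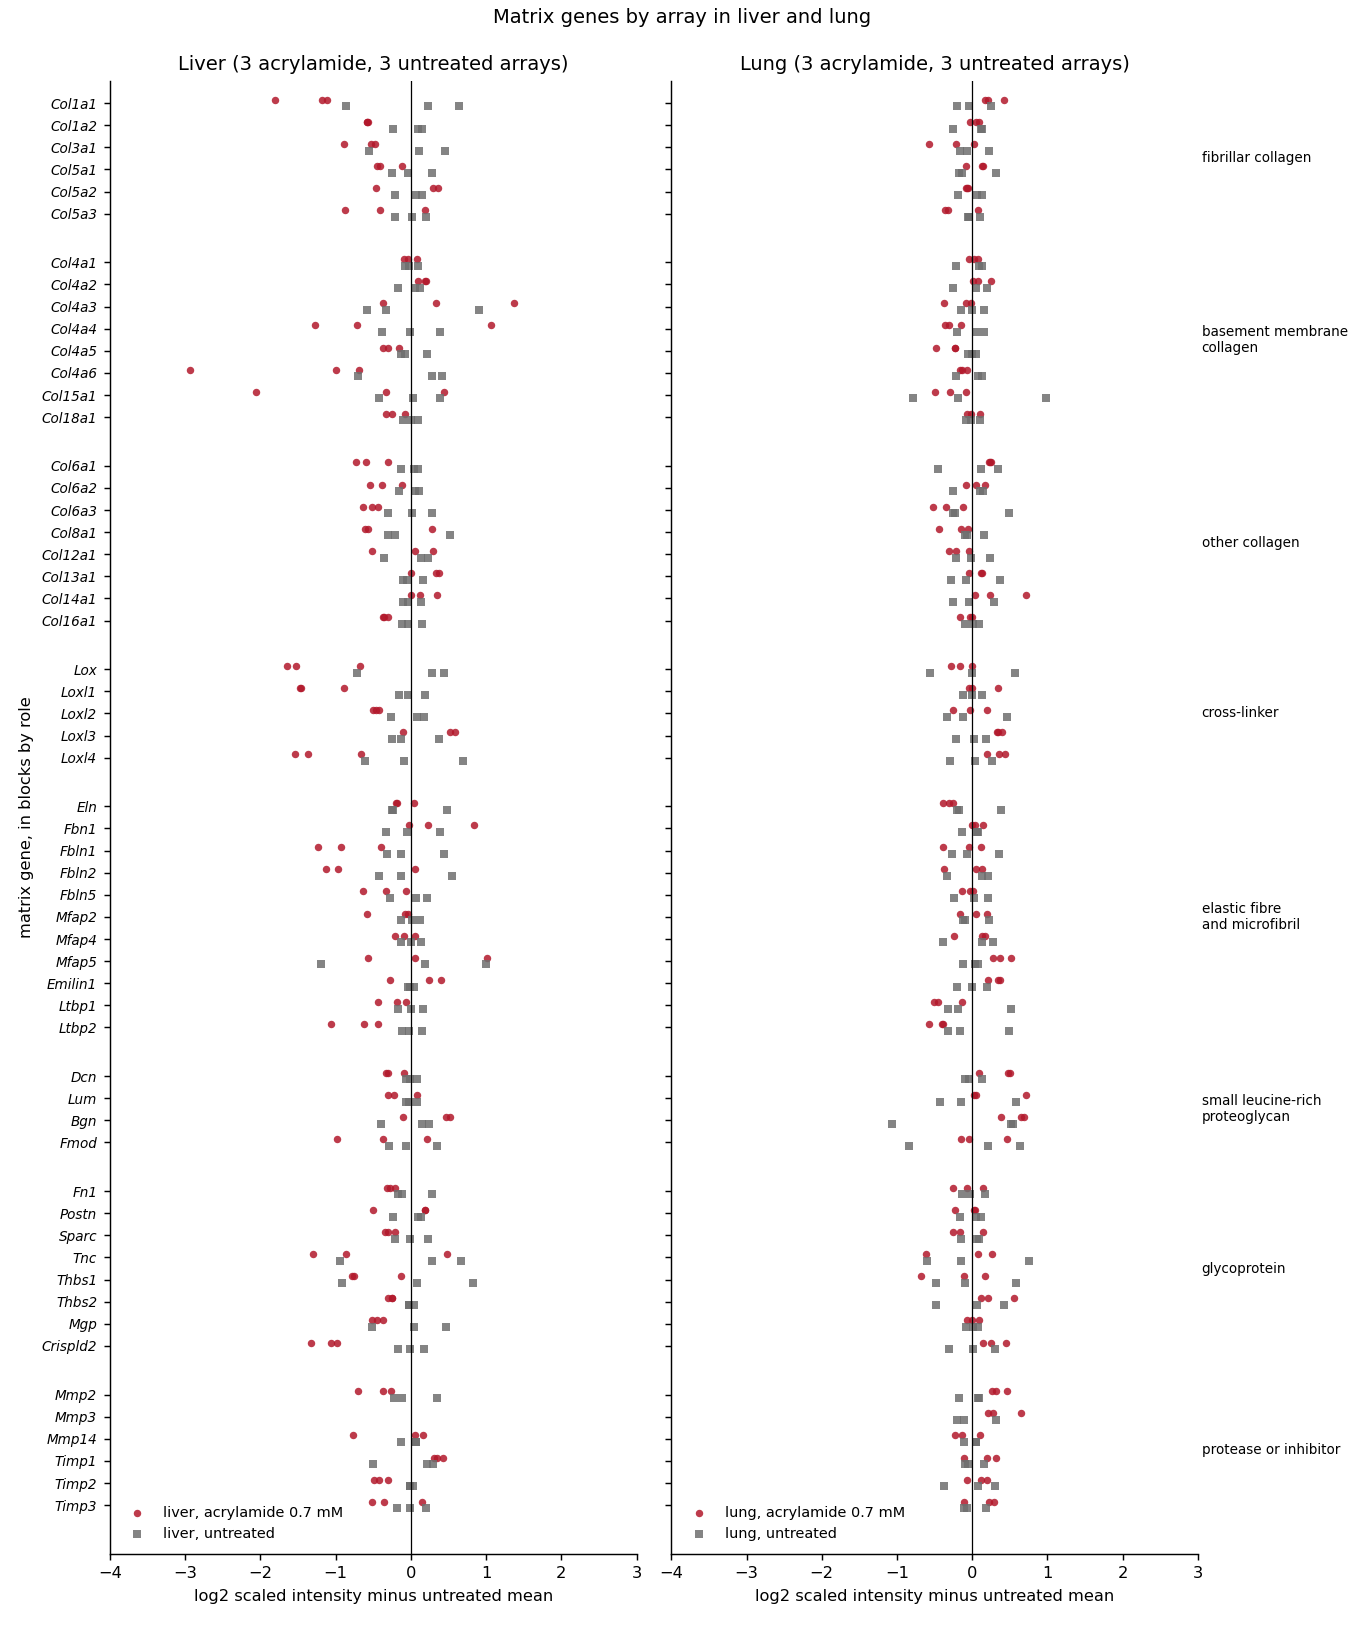
Each row is a matrix gene, in blocks by role, and each point an array, placed at its log2 scaled intensity minus the untreated mean of the same tissue; red circles are acrylamide arrays and grey squares untreated arrays, liver on the left and lung on the right. In liver the red points of 17 genes lie wholly below the grey ones and those of Timp1 wholly above, whereas in lung 3 genes lie wholly below and 4 wholly above.

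Among the fibrillar collagens, the 2 chains of collagen I and the chain of collagen III were lower in acrylamide livers. Col1a1, the main chain of collagen I, had scaled intensities of 399, 620 and 647 on acrylamide 27, 29 and 30, against 1634, 2171 and 771 on controls 1, 3 and 4. It differed by -1.37 ± 0.42 log2 units (SE, n = 3 per group, limma adjusted p = 0.784). The groups did not overlap, but control 4 lay close to the acrylamide arrays. Col1a1 occupied 20 spots, all 20 of them lower, by -1.56 to -1.30 log2 units. They read the same RNA on the same arrays and are not replicates of the treatment. Within an array these spots had an SD of 0.14 to 0.19 log2 units in liver. The spots of control 4, at 559 to 829, overlapped in range those of acrylamide 29 (449 to 657) and acrylamide 30 (461 to 728).

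**Figure D2:**
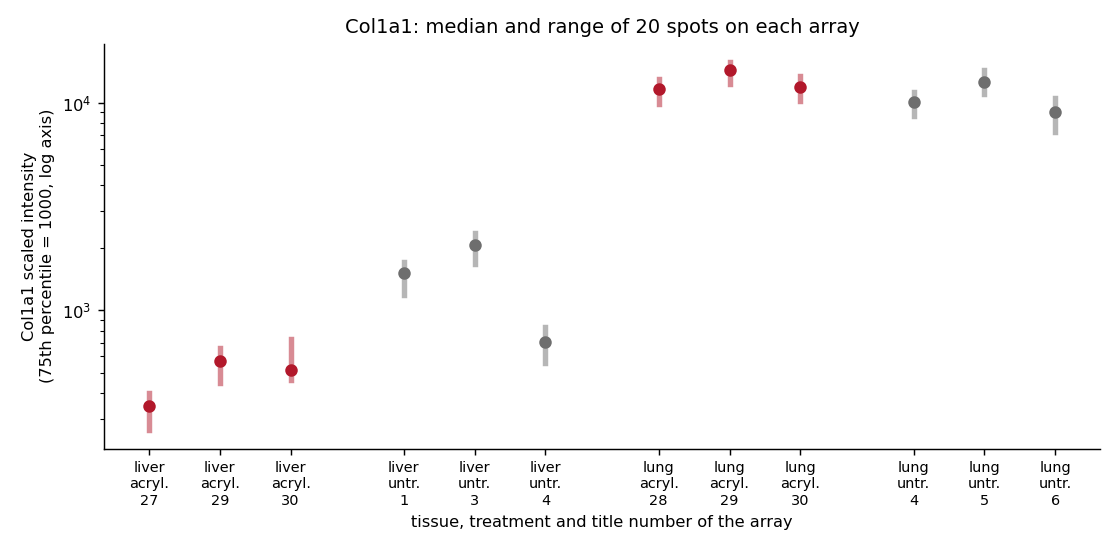
Scaled intensity of Col1a1 on a log axis for each of the 12 arrays, with the median (point) and the full range (bar) of its 20 spots, red for acrylamide and grey for untreated. The liver medians are 349, 570 and 516 on the acrylamide arrays and 1506, 2057 and 704 on the untreated ones, and all lung medians lie between 9040 and 14336.

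Col1a2, the partner chain of collagen I, was even within the acrylamide group, at 2849, 2856 and 2885, against 4557, 4757 and 3616 in untreated liver. Its difference was -0.58 ± 0.16 log2 units (SE, n = 3 per group, limma adjusted p = 0.784), and the groups did not overlap. Col3a1, the chain of collagen III, had 3113, 3991 and 4141 against 6189, 7898 and 3919, a difference of -0.63 ± 0.29 in which the groups overlapped through control 4. It was -0.41 without control 3. The collagen V chains that seed collagen fibrils differed less, from -0.36 for Col5a3 to 0.06 for Col5a2, and over the 6 fibrillar genes 5 were lower with a median of -0.47.

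The cross-linking enzymes had the largest shift of the 8 role groups. Lysyl oxidases oxidise lysines of collagen and elastin so that the chains can join, and 4 of the 5 family members were lower in acrylamide livers, with a median of -1.19 log2 units. The median of the family was -1.36, -0.67 and -1.46 on acrylamide 27, 29 and 30, against 0.19, -0.15 and -0.13 on controls 1, 3 and 4. Loxl1, an enzyme of elastic fibre assembly, had scaled intensities of 68.3, 102 and 68.5 in acrylamide livers, against 216, 170 and 184 in untreated livers. It averaged 79.6 ± 19.5 with acrylamide and 190 ± 23.5 untreated (SD, n = 3 each), and differed by -1.27 ± 0.21 log2 units (SE, limma adjusted p = 0.665). Every acrylamide array lay below every untreated one. The value of 68.5, on acrylamide 30, lay close to the background limit of that array.

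Lox itself had 22.2, 40.1 and 20.6 against 87.1, 78.0 and 38.9, a difference of -1.28 ± 0.40 log2 units (SE, n = 3 per group). Acrylamide 29 overlapped control 4, and Lox was above background on only 2 of the 3 acrylamide arrays. Loxl4 had 163, 263 and 144 against 392, 276 and 677, a difference of -1.19 ± 0.39 without overlap. Loxl2, which also acts on basement membrane collagen, was lower by a smaller amount, -0.46 ± 0.16, and Loxl3 was the exception at 0.34 ± 0.26. None of these 4 passed, with limma adjusted p of 0.784 to 0.821.

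Crispld2 had the smallest p of all 55 genes. It encodes a secreted glycoprotein known from lung development in rodents. Its scaled intensities were 176, 224 and 212 in acrylamide livers, against 497, 393 and 437 in untreated livers. The means were 204 ± 24.7 and 443 ± 52.3 (SD, n = 3 each), a difference of -1.12 ± 0.17 log2 units (SE, limma unadjusted p = 0.000471, adjusted p = 0.665). The groups lay clear of each other.

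**Figure D3:**
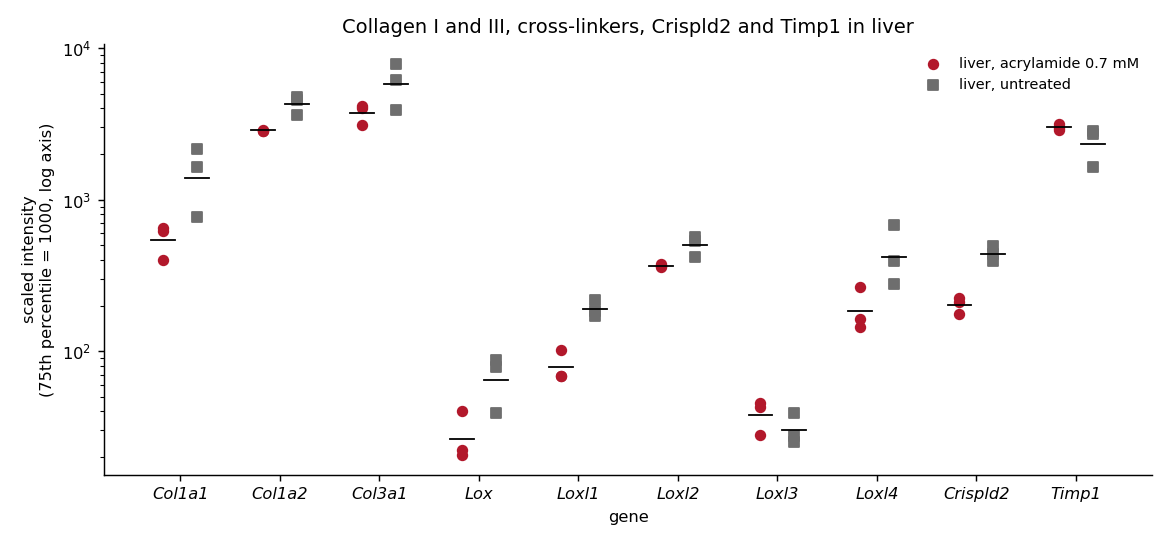
Scaled intensity on a log axis of 10 matrix genes on the 6 liver arrays, with acrylamide arrays as red circles, untreated arrays as grey squares and group means of log2 values as black lines. Col1a1, Col1a2, Loxl1, Loxl2, Loxl4 and Crispld2 separate with acrylamide lower and Timp1 with acrylamide higher, whereas Col3a1, Lox and Loxl3 overlap.

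The other matrix glycoproteins followed in direction, with 8 of 8 lower and a median of -0.36. Fn1, fibronectin, which hepatocytes also secrete into plasma, had 202898, 209188 and 217862 against 224668, 307650 and 232903, a difference of -0.27 ± 0.17 log2 units (SE, n = 3 per group) without overlap. It was -0.12 without control 3, and of its 3 spots 1 was higher, by 0.35. Tnc, tenascin C of wound matrix, differed by -0.56 ± 0.59, with values of 7.61, 5.63 and 19.2 against 21.8, 16.8 and 7.16. It was above background on only 1 of 3 acrylamide and 2 of 3 untreated arrays. Sparc, a collagen-binding protein, differed by -0.29, Mgp, an inhibitor of calcification, by -0.44, and Thbs2, a thrombospondin, by -0.27, with Thbs2 separate between groups.

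Among the 11 elastic fibre and microfibril genes 8 were lower, with a median of -0.23. Fbln1, a fibulin that binds elastin and fibronectin, had 64.0, 79.2 and 114 against 205, 120 and 137, a difference of -0.85 ± 0.30 log2 units (SE, n = 3 per group). Ltbp2, a microfibril protein related to the binders of latent TGF-beta, had 139, 189 and 215 against 320, 267 and 284, a difference of -0.70 ± 0.20. Neither gene overlapped between groups, and both had a limma adjusted p of 0.784. Fbln2, a fibulin of basement membranes and microfibrils, had 71.5, 80.3 and 163 against 229, 143 and 117, and there acrylamide 30 lay above 2 of the 3 controls (-0.68 ± 0.40). Elastin, Eln, differed by -0.11 ± 0.24, and fibrillin 1, Fbn1, the core of the microfibril, by 0.35 ± 0.29.

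Basement membrane collagens were the most uneven block. The widespread collagen IV chains Col4a1 and Col4a2 differed by -0.02 ± 0.13 and 0.16 ± 0.14 log2 units (SE, n = 3 per group). Col4a6, a chain of restricted basement membranes, had the largest difference of all 55 genes, -1.54 ± 0.65. Its values were 3.92, 15.0 and 18.6 against 36.4, 18.4 and 40.0, and it was above background on only 1 acrylamide array. It differed by -0.84 without acrylamide 27. Col15a1, a collagen on the outer face of basement membranes, had 22.2, 6.74 and 38.0 against 36.6, 21.0 and 28.6 (-0.65 ± 0.64). It too was above background on only 1 acrylamide array, and Col4a4 was so on none. Col18a1, the source of endostatin and a bright gene in liver, differed by -0.22 ± 0.14. Col4a5 differed by -0.28 and was the separate gene of the block.

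Of the 17 tested remaining collagens, proteoglycans and proteases 6 were separate and lower and 1 separate and higher. The shares over all genes were 6.74% and 5.44%. Col6a1 and Col6a3, chains of the beaded filaments of collagen VI, differed by -0.54 ± 0.16 and -0.53 ± 0.19 log2 units (SE, n = 3 per group), and Col16a1, a fibril-associated collagen, by -0.34 ± 0.14, with groups apart in all 3. The second Col16a1 spot differed by 0.66. Decorin, Dcn, which coats collagen fibrils, differed by -0.24 ± 0.14 without overlap. Timp1, an inhibitor of matrix metalloproteinases, was the single gene separate in the other direction, with 2899, 2973 and 3139 against 2714, 1644 and 2856 (0.36 ± 0.24), a margin that was narrow against controls 1 and 4, and the difference was 0.11 without control 3. Timp2 differed by -0.41 ± 0.13 and its second spot by 0.16. In all, 22 genes had several tested spots, and in 8 of them the spots differed in sign.

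Promoter sequence was at hand in RefSeq (GRCm38.p6) for 38 of the 56 genes. The 250 bases upstream of the annotated start are shown for 3 genes that were lower in acrylamide livers and for Timp1, with capitals marking TATAAA (the TATA box), CCAAT (the CCAAT box) and GGGCGG (the GC box) on either strand; these motifs do not overlap here. Upstream of Col1a2 (chr6:4505368-4505617, plus strand), Col3a1 (chr1:45311288-45311537, plus strand), Crispld2 (chr8:119992188-119992437, plus strand) and Timp1 (chrX:20869916-20870165, plus strand) the sequences read 5′ to 3′:
Col1a2: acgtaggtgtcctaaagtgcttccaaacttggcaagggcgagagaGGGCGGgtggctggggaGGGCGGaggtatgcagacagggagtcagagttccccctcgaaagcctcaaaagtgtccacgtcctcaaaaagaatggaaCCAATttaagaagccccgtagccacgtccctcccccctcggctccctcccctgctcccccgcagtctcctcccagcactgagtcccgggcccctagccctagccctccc
Col3a1: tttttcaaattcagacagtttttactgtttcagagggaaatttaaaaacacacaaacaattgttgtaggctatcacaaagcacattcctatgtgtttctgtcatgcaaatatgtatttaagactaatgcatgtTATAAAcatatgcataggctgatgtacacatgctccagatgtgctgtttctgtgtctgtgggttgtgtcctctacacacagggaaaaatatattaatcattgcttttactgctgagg
Crispld2: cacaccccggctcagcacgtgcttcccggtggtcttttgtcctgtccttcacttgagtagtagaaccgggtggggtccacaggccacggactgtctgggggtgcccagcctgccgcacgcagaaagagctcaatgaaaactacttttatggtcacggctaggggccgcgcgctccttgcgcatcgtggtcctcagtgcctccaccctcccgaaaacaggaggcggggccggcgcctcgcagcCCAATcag
Timp1: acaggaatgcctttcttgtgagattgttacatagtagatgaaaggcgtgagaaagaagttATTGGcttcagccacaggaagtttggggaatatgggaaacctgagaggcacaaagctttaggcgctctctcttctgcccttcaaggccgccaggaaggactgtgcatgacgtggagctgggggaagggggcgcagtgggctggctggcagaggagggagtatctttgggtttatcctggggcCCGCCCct
The Col1a2 window held 1 CCAAT and 2 GGGCGG, the Col3a1 window 1 TATAAA, the Crispld2 window 1 CCAAT, and the Timp1 window 1 CCAAT and 1 GGGCGG. Over 46 windows of the matrix genes 15.2% held TATAAA, 32.6% CCAAT and 54.3% GGGCGG, against 12.4%, 33.8% and 32.7% of 32817 promoter windows of the same length. These letter matches are a description and not sites shown to be used.

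Genes that modify collagen or pass signals to and from the matrix were counted as lists, and in liver none of their members passed. Of 21 genes of collagen processing 17 were lower, with a median of -0.16 log2 units. Serpinh1, the collagen chaperone of the endoplasmic reticulum, differed by -0.82 ± 0.28, Plod2, a lysyl hydroxylase, by -0.61 ± 0.22, and Fkbp10, a prolyl isomerase that acts on collagen, by -0.54 ± 0.23 (SE, n = 3 per group). Of 19 tested collagens outside the 56 genes 13 were lower (median -0.17), led by Col6a5 at -1.09 ± 0.24, Col2a1 at -0.85 ± 0.35 and Col27a1 at -0.81 ± 0.16. Of 15 other proteases and inhibitors 12 were lower (median -0.23). Of 23 tested genes of matrix signalling 14 were lower (median -0.09). The collagen receptor integrin Itga11 differed by -1.48 ± 0.35 and the collagen receptor kinase Ddr1 by -0.74 ± 0.21, while Ccn2, a matricellular growth factor, was higher at 0.83 ± 0.52.

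Marker genes of cells that make or border the matrix shifted beside these genes, and their part in the result was not tested. Of 7 fibroblast markers 5 were lower, with a summed scaled intensity of 1237 to 1729 in acrylamide livers, against 1577 to 2185 in untreated livers. Of 7 stellate cell markers 6 were lower, their sums being 10954 to 12507 against 11323 to 13104, and of 5 mesothelial markers 4 were lower, with sums of 303 to 1161 against 769 to 2029. Smooth muscle markers were split, 3 lower and 3 higher, with sums of 13155 to 36699 against 28547 to 40969. All 6 macrophage markers were higher, with sums of 29576 to 32544 against 19820 to 27972. Endothelial markers were higher for 4 of 6, with sums of 43676 to 51369 against 37488 to 45475, and biliary markers lower for 3 of 5, with sums of 8553 to 10089 against 9608 to 14623. Alveolar type 2 genes, which liver should lack, were higher for 4 of the 5 tested, with sums of 7944 to 19805 against 8809 to 9753. All 4 markers of club cells, a cell type of the lung airway, were higher too, by 0.22 to 3.17 log2 units with a median of 2.31. These markers are not all confined to lung, as their sums in untreated liver were 144493 to 169008. Their smallest difference between untreated lung and liver was 0.33 log2 units. Their median deviation from the untreated mean was 3.93 on acrylamide 27 and 3.35 on acrylamide 29 but -0.33 on acrylamide 30, against -0.17 to 0.11 on untreated arrays. Of 8 hepatocyte markers 7 were lower, with a median deviation of -0.30 and -0.37 on acrylamide 27 and 29 and 0.23 on acrylamide 30, against -0.08 to 0.07 on untreated arrays. The matrix genes lay at -0.38, -0.33 and -0.28 on acrylamide 27, 29 and 30, and a link to either list was not tested. No intensity in the files is 0, so no marker was listed at 0.

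In lung the matrix genes were evenly divided and none passed the test. Of 56 genes 30 were higher and 26 lower with acrylamide, with a median of 0.01 log2 units, against a median of -0.01 for all 22252 tested genes, of which 48.3% were higher. With median scaling 32 of the 56 were lower. limma called 0 of 56 at an adjusted p under 0.05, as it called 0.0% of all genes. At an unadjusted p under 0.05 there were 4, where 4.95% of all genes reached that level. Groups did not overlap for 4 higher and 3 lower genes, where 4.08% of all genes were separate and higher and 6.85% separate and lower. The count of separate genes was thus near the background. The median was -0.03 within title row 1 and 0.06 within row 2.

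The 4 genes at an unadjusted p under 0.05 were Mfap5, Mmp2, Loxl3 and Col4a5. Mfap5, a microfibril glycoprotein, had 8107, 6842 and 7327 on acrylamide 28, 29 and 30, against 5190, 5830 and 5996 on controls 4, 5 and 6. It differed by 0.39 ± 0.11 log2 units (SE, n = 3 per group, limma adjusted p = 0.963). Mmp2, gelatinase A, had 1219, 1351 and 1178 against 874, 1048 and 1037, a difference of 0.34 ± 0.12. In both genes every acrylamide array exceeded every untreated one. Loxl3 had 55.9, 58.6 and 56.8 against 45.6, 38.5 and 50.9 (0.35 ± 0.13), also without overlap. Col4a5, a collagen IV chain of the alveolar basement membrane, had 6252, 5245 and 6220 against 7035, 7568 and 7309 and was the separate lower gene of its block, at -0.31 ± 0.11. The limma adjusted p of these last 3 genes was 0.982 to 0.998.

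All 4 small leucine-rich proteoglycans were higher and overlapped between groups, and their median difference was 0.31 log2 units. Biglycan, Bgn, had the largest difference of the 56 genes, 0.58 ± 0.45 (SE, n = 3 per group), with 842, 681 and 818 against 248, 745 and 760. Control 4 was low, and without it the difference was 0.046. Dcn had 33846, 34604 and 25961 against 23724, 26778 and 22930, a difference of 0.35 ± 0.15.

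Several lower genes also turned on control 4, which was high for them. Ltbp2 had 5761, 5810 and 5086 in acrylamide lungs, against 10638, 6070 and 6781 in untreated lungs, a difference of -0.45 ± 0.23 log2 units (SE, n = 3 per group) without overlap. Ltbp1, a binder of latent TGF-beta, had 1987, 2568 and 2058 against 4025, 2243 and 2475 (-0.36 ± 0.25). Eln had 1548, 1702 and 1641 against 2645, 1766 and 1796 (-0.32 ± 0.18), again without overlap, though its second spot was at 0.07. Col6a3 had 4276, 5633 and 4846 against 8614, 5230 and 5169 (-0.33 ± 0.24). In each of these 4 genes the other 2 untreated lungs lay close to the acrylamide lungs. Without control 4 the differences were -0.21 for Ltbp2, -0.11 for Ltbp1, -0.13 for Eln and -0.089 for Col6a3. Lox had 2336, 2144 and 2593 against 3858, 1766 and 2589, and its difference of -0.15 ± 0.29 was 0.14 without control 4. Tnc, with 151, 279 and 245 against 390, 210 and 152, likewise was at -0.09 ± 0.40 with all arrays and 0.28 without control 4.

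Collagen I and III chains overlapped between groups in lung. Col1a1 had 12973, 15448 and 13376 against 11225, 13699 and 9985, a difference of 0.27 ± 0.15 log2 units (SE, n = 3 per group). Its 20 spots, which read the same RNA and are not replicates, were all higher. Col1a2 had 24385, 25267 and 23135 against 25590, 25966 and 19896 (0.04 ± 0.13), and this sign turned under median scaling. Col3a1 had 15932, 24110 and 20442 against 27900, 22775 and 21266 (-0.26 ± 0.19). Col14a1, a fibril-associated collagen, had 81.9, 131 and 94.2 against 77.9, 97.6 and 67.1 (0.33 ± 0.23), and its groups overlapped as well.

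Other members named for size or role differed as little. Mmp3 had 2321, 2224 and 2995 against 1660, 1775 and 2394 (0.38 ± 0.19 log2 units, SE, n = 3 per group), and Loxl4 had 40.8, 48.0 and 45.6 against 36.4, 28.8 and 42.8 (0.33 ± 0.17). Fn1 differed by -0.06 ± 0.15, with 32749, 28381 and 24739 against 26999, 28935 and 33407. Timp1 differed by 0.13 ± 0.15, and its acrylamide arrays at 990, 1328 and 1224 straddled the untreated range of 1000 to 1195. All 4 overlapped between groups.

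Of the surrounding lists, matrix signalling was the most one-sided in lung, with 19 of 24 genes lower, a median of -0.16 log2 units and no call. Ccn1, a matricellular protein of the Ccn family, differed by -0.78 ± 0.13 (SE, n = 3 per group, limma adjusted p = 0.924), Itga1, a collagen receptor integrin, by -0.58 ± 0.44, and Pdgfrb, a platelet-derived growth factor receptor, by -0.52 ± 0.22. Collagen processing had 15 of 21 higher (median 0.08), other collagens 12 of 22 (0.03) and other proteases 8 of 15 (0.00). Of 7 fibroblast markers 6 were higher, with sums of 48502 to 51627 in acrylamide lungs, against 43740 to 47782 in untreated lungs. Hepatocyte markers were higher for 8 of 8, with sums of 15984 to 34325 against 15243 to 32759, but varied within both groups. Their median deviation from the untreated mean was 0.86, 0.68 and -0.32 on acrylamide 28, 29 and 30. On controls 4, 5 and 6 it was -0.15, -0.46 and 0.75. Macrophage markers were higher for 5 of 6 and smooth muscle markers for 5 of 6, while stellate cell markers were lower for 5 of 7 and mesothelial markers for 5 of 5. The part of these cells in the matrix values was not tested.

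The difference between the tissues in their response was tested directly, as the lung difference minus the liver difference over 12 arrays. Of 56 matrix genes 48 had a value above 0, where 49.8% of all 23300 genes did, and the median was 0.29 log2 units against 0.00 over all genes. These values rest on the brightest spot of each gene. In 11 of the 25 genes with several tested spots, the spots differed in sign. limma called 0 of 56 and 0.0% of all genes at an adjusted p under 0.05. At an unadjusted p under 0.05 there were 8 matrix genes, all above 0, where 2.18% of all genes were above 0 at that level. Crispld2 had 17202, 19776 and 15985 in acrylamide lungs, against 17944, 11668 and 14551 in untreated lungs, and its response differed by 1.4 ± 0.25 log2 units (SE, n = 3 per group, limma adjusted p = 0.756). With array weights estimated by limma Crispld2 was at 1.46 and passed (limma adjusted p = 0.0273, range over its alternatives 0.0273 to 0.9998). In that fit liver acrylamide 29 had a weight of 4.51, against 0.74 for liver acrylamide 27 and 0.15 for liver acrylamide 30. The acrylamide livers thus entered mainly through 1 array. Loxl1 had 2971, 3880 and 3068 against 2812, 3050 and 3349 in lung, and its response differed by 1.37 ± 0.26 (adjusted p = 0.769). Col1a1 followed at 1.60 ± 0.49 and Mmp2 at 0.79 ± 0.25. In liver Mmp2 had 72.8, 78.7 and 58.0 with acrylamide against 120, 80.9 and 86.7 untreated, the reverse of its order in lung. Only 78.7 against 80.9 parted these liver groups, and 58.0, on acrylamide 30, lay close to the background limit of that array. The effect of acrylamide on these genes is therefore not shown to differ between the tissues by the unweighted test.

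Between untreated tissues the matrix genes were far apart, most of them higher in lung. limma called 51 of 56 at an adjusted p under 0.05, 42 of them higher and 9 lower in untreated lung, where 74.4% of all 22441 tested genes were called, 32.0% higher and 42.4% lower. Groups did not overlap for 42 higher and 9 lower genes, where 33.7% of all genes were separate and higher and 45.1% separate and lower. The median difference was 3.15 log2 units, against -0.28 for all genes. That median of all genes was 0.02 with quantile scaling and -0.07 with median scaling, and the matrix median was then 3.35 and 3.36. The first number of the title code is the same for all lung arrays and another for all liver arrays, so if it is a slide, an effect of the slide and a tissue difference cannot be told apart. For some genes the brightest spot was not that of the liver fit, so values for Col1a1, Eln and a few others differ from those above.

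**Figure D4:**
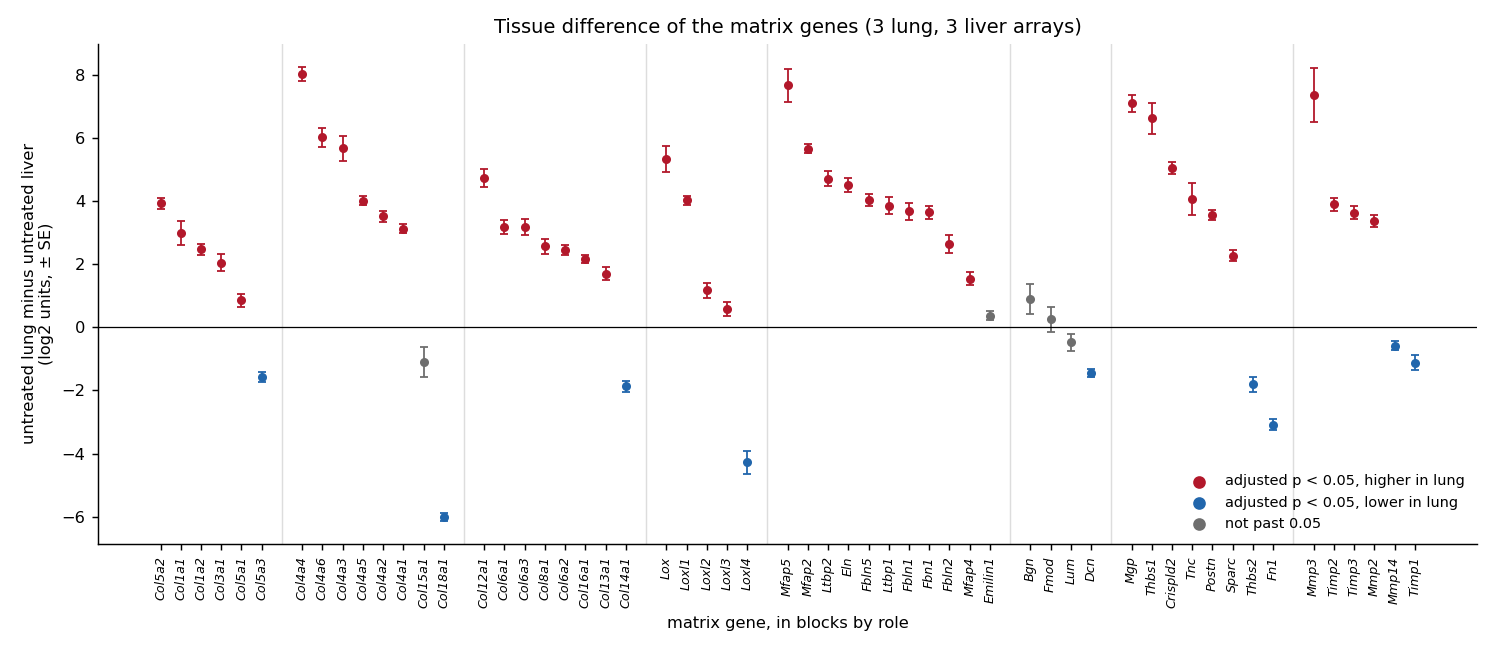
Difference of each matrix gene between untreated lung and untreated liver in log2 units, with SE bars, ordered by size within each role; red is higher in lung and blue lower in lung at an adjusted p under 0.05, and grey did not pass. The largest positive value is Col4a4 at 8.03 and the largest negative Col18a1 at -6.01, and all 11 elastic fibre genes lie above 0.

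The basement membrane collagens showed both extremes. Col4a4, a chain of the mature collagen IV network of lung alveoli and kidney glomeruli, had 2763, 2326 and 2996 in untreated lung, against 10.2, 13.4 and 7.87 in untreated liver. It rose by 8.03 ± 0.23 log2 units in lung (SE, n = 3 per group, limma adjusted p = 8.69e-07). Its network partner Col4a3 had 409, 508 and 451 against 16.8, 5.97 and 7.06 (5.67 ± 0.39), where 1 liver array was below background. Col4a6 had 2047, 2112 and 1673 against 36.4, 18.4 and 40.0 (6.01 ± 0.31). These liver values lie near background, and with an offset of 50 added to each intensity the differences were 5.50 for Col4a4, 3.08 for Col4a3 and 4.61 for Col4a6. The widespread chains Col4a1 and Col4a2 rose by 3.12 ± 0.15 and 3.52 ± 0.17, and Col4a5, a partner in both networks, by 4.01 ± 0.14.

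Col18a1 ran the other way. It had 2898, 2679 and 2563 in untreated lung, against 161685, 187207 and 175455 in untreated liver, and fell by 6.01 log2 units in lung (SE 0.13, n = 3 per group, limma adjusted p = 4.49e-07). Col15a1, its closest relative, had 25.7, 11.4 and 7.56 against 36.6, 21.0 and 28.6 and did not pass (-1.10 ± 0.47, limma adjusted p = 0.0705).

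**Figure D5:**
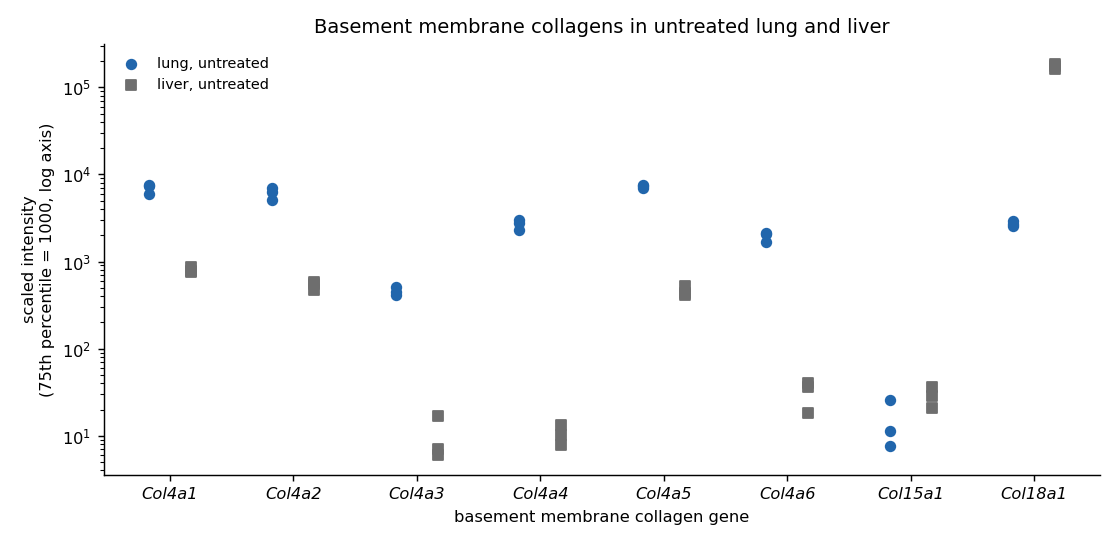
Scaled intensity on a log axis of the 8 basement membrane collagens on untreated arrays, with lung as blue circles and liver as grey squares, 3 arrays each. All 6 collagen IV chains lie higher in lung without overlap, Col18a1 lies higher in liver without overlap, and Col15a1 overlaps.

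Genes of collagen IV chains lie head to head in pairs. In RefSeq (GRCm38.p6) the 300-base promoter windows of Col4a1 (chr8:11312777-11313076, minus strand) and Col4a2 (chr8:11312555-11312854, plus strand) share 78 bases, and the starts are 21 bases apart. In untreated lung these 2 genes were higher by 3.12 and 3.52 log2 units, and in acrylamide livers they differed by -0.02 and 0.16. Col4a5 and Col4a6, on opposite strands of chromosome X with starts 1343 bases apart, were higher in lung by 4.01 and 6.01. In acrylamide livers they differed by -0.28 and -1.54, the second near background.

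Fibrillar collagens were higher in lung for 5 of 6 genes. Col1a1 had 11225, 13699 and 9985 in untreated lung, against 1584, 2350 and 829 in untreated liver, a rise of 2.99 ± 0.38 log2 units (SE, n = 3 per group, limma adjusted p = 0.000465). Col1a2 rose by 2.47 ± 0.18, with 25590, 25966 and 19896 against 4557, 4757 and 3616, and Col3a1 rose by 2.05 ± 0.28, with 27900, 22775 and 21266 against 6189, 7898 and 3919. Col5a3, a collagen V chain, was the exception, with 282, 252 and 254 against 783, 889 and 667 (-1.56 ± 0.15). Of the other collagens 7 of 8 rose in lung, while Col14a1 fell by 1.87, with 77.9, 97.6 and 67.1 against 285, 273 and 320. Col12a1 stood at 4.74 on its brightest spot and -0.92 on its second, so its direction depends on the spot.

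The cross-linkers divided by gene. Lox had 3858, 1766 and 2589 in untreated lung, against 87.1, 78.0 and 38.9 in untreated liver, a rise of 5.34 ± 0.40 log2 units (SE, n = 3 per group, limma adjusted p = 4.05e-05). Loxl1, which lung needs for elastin, rose by 4.02 ± 0.15. Loxl4 fell in lung, with 19.1, 18.1 and 28.8 against 392, 276 and 677, a difference of -4.28 ± 0.36. Lox and Loxl1 were high in lung and Loxl4 high in liver, yet all 3 were lower in acrylamide livers. Loxl2 was at 1.17 with its second spot at -0.24.

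Elastic fibre and microfibril genes formed the most uniform block, with 11 of 11 higher in lung, 10 of them called, and a median of 3.86 log2 units. Over all genes 43.4% were higher in lung and 32.0% were called higher. Mfap5 had 5190, 5830 and 5996 in untreated lung, against 55.5, 12.1 and 31.6 in untreated liver (7.67 ± 0.52, SE, n = 3 per group). Mfap2, another microfibril glycoprotein, had 6393, 6528 and 8181 against 150, 126 and 139 (5.66 ± 0.16). Eln rose by 4.51 ± 0.22, Fbln5, a fibulin needed for elastic fibre assembly, by 4.05 ± 0.19, and Fbn1 by 3.64 ± 0.21. Emilin1, an elastin interface protein, did not pass (0.37 ± 0.15, limma adjusted p = 0.0609). Ltbp1 rose by 3.86 on its brightest spot but was as low as -2.94 on another.

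Glycoproteins rose in lung for 6 of 8 genes. Mgp had 79730, 84820 and 89475 in untreated lung, against 856, 434 and 641 in untreated liver (7.09 ± 0.26 log2 units, SE, n = 3 per group). Thbs1, a thrombospondin that activates latent TGF-beta, had 11994, 5700 and 7467 against 86.1, 144 and 43.3 (6.62 ± 0.49). Tnc had 390, 210 and 152 against 21.8, 16.8 and 7.16 (4.07 ± 0.51), with its second spot at -0.16. Crispld2 rose by 5.04 ± 0.20. Fn1 fell by 3.09 in lung, with 26999, 28935 and 33407 against 224668, 307650 and 232903, and Thbs2 fell by 1.80, with 29.7, 23.1 and 16.0 against 79.7, 76.4 and 76.6.

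The proteoglycans differed least between the tissues, and 3 of the 4, Lum, Bgn and Fmod, did not pass. Dcn fell by 1.45 log2 units in lung, with 23724, 26778 and 22930 in untreated lung, against 63684, 70784 and 66114 in untreated liver. Among proteases and inhibitors, Mmp3 had 1660, 1775 and 2394 against 50.3, 5.01 and 6.29 and rose by 7.36 ± 0.86 (SE, n = 3 per group), though it was above background on only 1 liver array. Timp2, Timp3 and Mmp2 rose by 3.90, 3.63 and 3.38. Timp1 fell by 1.12, with 1195, 1028 and 1000 against 2714, 1644 and 2856. When the title row was fitted as a block, Timp1 no longer passed (limma adjusted p = 0.0801, range over its alternatives 0.000717 to 0.0801). Mmp14, the membrane protease that activates Mmp2, fell by 0.58.

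The surrounding lists showed the same tissue order in part. All 24 genes of matrix signalling were higher in lung and 22 were called, among them the growth factor Pdgfb at 5.70 ± 0.15 log2 units (SE, n = 3 per group) and Ccn2 at 5.30 ± 0.54. Of 21 genes of collagen processing 12 were called higher and 5 lower, and of 20 tested other collagens 6 higher and 8 lower. Over all genes 32.0% were called higher and 42.4% lower, and the other collagens lay near these shares. Fibroblast markers were higher in lung for 7 of 7 genes, with sums of 43740 to 47782 in untreated lung, against 1577 to 2185 in untreated liver, and mesothelial markers for 5 of 5, with sums of 27144 to 35503 against 769 to 2029. Of 7 stellate cell markers 4 were called lower in lung and 2 higher (median -3.27), with sums of 11506 to 18013 against 11323 to 13104. Their part in the matrix differences was not tested.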

How the data were processed

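RNA from 12 arrays in 4 groups of 3 was analysed, grouped by titles and source names. The deposited array files hold a linear Cy3 intensity for each of 62976 spots. The submitters' processing notes name Agilent Feature Extraction 10.7, and no source used here says if background was subtracted. The authors' series matrix, an intensity table in which each array's 75th percentile is about 1000, was used as an alternative. From the 61657 spots left after 1319 control spots, log2 values were taken relative to the 75th percentile of their array. Symbols came through Entrez numbers or accessions from a RefSeq table (GRCm38.p6), and for 2242 spots from the gene name deposited with the array. The 20646 spots left without a symbol were not tested. Background was the 95th percentile of 308 negative control spots on the array. Named spots above it on at least 3 arrays of a fit were tested, and the spot with the highest mean stood for its gene.

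limma 3.58.1 (lmFit, eBayes) in R 4.3.3 was fitted over all genes, with Benjamini-Hochberg adjusted p under 0.05 as threshold: within liver, within lung, between untreated tissues, and as an interaction over 12 arrays. A nominal level of unadjusted p under 0.05, with or without a fold of 1.5, was counted beside it. The fits were tested on simulated data. The members, lists and alternatives were chosen with earlier results of these data known. Members named with values were the 12 with the largest difference in each tissue, those past the nominal level and fold, the 8 largest in each direction between tissues among called genes, the 4 with the smallest interaction p, and Col1a1, Col1a2, Col3a1, Lox, Fn1, Timp1 and Tnc, with up to 3 per list; any further gene was picked with its values in view. A gene that this rule names in a list is not reported here. Title numbers 29, 30 and 4 occur in both tissues; no label says that they mark the same animal, and acrylamide and control share none within a tissue. The number of arrays limits the precision. Alternatives covered scaling, the series matrix, an offset of 50, background filters, the mean of a gene's spots, an intensity trend, array weights, the row read from the title code (its meaning is not labelled), the title number as a block, each array left out and all 12 arrays in a single fit.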

Additional observations from a re-analysis of the deposited data

How the results depend on the processing

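In liver, 0 matrix genes were called under all 12 other settings and with any 1 array left out, and the median difference of the matrix genes ran between -0.31 and -0.24 log2 units under those settings and between -0.34 and -0.26 with an array left out. It was -0.30 with a block for the title row and in row 1 alone, and -0.17, with 39 of 55 genes lower, in row 2, which holds acrylamide 29 and control 4 and was added after seeing the data. In lung 0 genes were called throughout, and the median was 0.02 with the row block, -0.03 in row 1 and 0.06 in row 2. Between untreated tissues 46 to 53 matrix genes were called under 11 other settings and 50 to 53 with an array left out (median 3.06 to 3.25). Of all 22441 genes 16700 (74.4%) were called in the main fit, 16356 with quantile scaling and 12228 with the row block. The median of the matrix genes there was 3.35 with quantile scaling, 3.36 with median scaling, 2.89 with an offset of 50, 2.99 with the filter on every array, 2.61 with the mean of spots and 3.00 with the row block, against 3.15. For the difference in response, array weights called 1 gene, Crispld2 at 1.46, among 139 of all genes and left 14 genes below 0. Its median was 0.21 to 0.41 with an array left out, the highest without liver acrylamide 30, when 136 of all genes but none of the matrix genes were called, and the count below 0 was 5 to 12.

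With the title number as a random replicate block (consensus correlation -0.18) 52 genes were called between untreated tissues, the median being 3.13, and the median response difference was 0.30 with 0 called. This block changed no other call, and no paired analysis was possible within a tissue because acrylamide and control arrays share no number.

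Single genes turned sign as follows, and the cause was not tested. In liver Col15a1 was at 0.071 in row 1 alone and between -1.19 and 0.056 with an array left out, the highest without acrylamide 29. In lung Col1a2 was at -0.0045 with median scaling, -0.13 in row 1 and between -0.088 (without control 6) and 0.10 with an array left out. Lox was at 0.075 with array weights, 0.48 in row 1 and between -0.43 and 0.14 (without control 4). Tnc was at 0.089 with array weights, 0.033 with the row block, 0.19 in row 2, 0.17 without acrylamide 28 and between -0.40 and 0.28 (without control 4). Col14a1 was at -0.15 and Col1a1 at -0.056 in row 1. Fn1 lay between -0.16 and 0.040 (without acrylamide 30) and was above 0 also without control 6. Between untreated tissues Timp1 was at -1.04 with the row block and no longer passed. Dim spots limit what liver arrays can show, since 7 of 55 matrix genes had a mean within 4-fold of the mean background limit there.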
